A study of Bos taurus with 56 samples.

Results

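Accessible chromatin was compared between cattle (Bos taurus) oocytes at the germinal vesicle (GV) stage and at metaphase II (MII). All 4382 peaks of the GV list and all 730 peaks of the MII list were taken, 5112 of the 673059 peaks in the 11 lists of the series. Peaks of the 2 lists with at least 1 bp in common were taken as shared. By that rule 134 GV peaks and 140 MII peaks were shared, 4248 peaks were found in the GV list only and 590 in the MII list only. The 2 shared counts differ because 7 GV peaks each lay over 2 or more MII peaks and 2 MII peaks over 2 or more GV peaks, and joined together they made 131 regions.

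A GV oocyte is immature and arrested in the prophase of the first meiotic division, with its chromatin still enclosed in a large nucleus. As the oocyte grows to full size its chromatin condenses and transcription declines. After the nuclear envelope breaks down the oocyte completes the first division and halts again at MII, with condensed chromosomes on a spindle and without transcription, ready for fertilisation. Bovine embryos then live largely on maternal RNA until their own genome is activated at about the 8-cell to 16-cell stage.

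The measurement was ATAC-seq, in which a transposase cuts and tags DNA that is not tightly packed, so that reads pile up as peaks over accessible regions. The GV list was made from 6 libraries and the MII list from 5, and the oocytes of a library were pooled. The 9 lists used for comparison came from 2-cell, 4-cell, 8-cell and 16-cell embryos, morulae and blastocysts, morulae and blastocysts derived in vivo, and day 14 elongating embryos. The labels name the stage alone, with no breed, donor age, maturation method, treatment or allele. Each list was merged over the libraries of its stage and gives for a peak its chromosome and its 2 end points, without a height, a score or a read count. Sequencing depth is therefore unknown, there is no spread between replicates and no test between the stages, and whether fewer peaks reflect less accessible DNA or shallower libraries cannot be told apart. The 95% intervals below are exact binomial (Clopper-Pearson) intervals, cover counting error only and treat neighbouring peaks as independent. Positions are on UMD3.1, counted from 1, and since no gene annotation of that build was used here, regions are given by position and not by gene.

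Peak width was the one value each list held for a peak, and shared peaks tended to be wider, with ranges that overlapped. A rule of 1 bp in common favours wide peaks. With at least 50% of both peaks required, the ratio of median widths of shared to unshared GV peaks was 1.61, against 1.87. The median width was 684.5 bp for shared GV peaks and 479 bp for shared MII peaks, against 366.5 bp for GV-only and 289 bp for MII-only peaks. The narrowest peaks of the 2 lists were alike, 219 bp in GV and 216 bp in MII. MII-only peaks came closest to that lower bound, with 10% of them at or below 226 bp and 10% of GV-only peaks at or below 281 bp. For shared MII and shared GV peaks the same limit was 283.2 and 314.1 bp. At the upper end, 39 of the 134 shared GV peaks (29.1%) were at least 1 kb wide, against 60 of the 4248 GV-only peaks (1.41%). In the MII list 15 of the 140 shared peaks (10.7%) reached 1 kb and 3 of the 590 MII-only peaks (0.508%) did. Wide peaks of either list were thus more often shared. Of MII peaks below 250 bp, 3.43% were shared (interval 1.27% to 7.31%), of those from 400 to 600 bp 36.4% (28.1% to 45.4%), and of those of 1 kb or more 83.3% (58.6% to 96.4%, 18 peaks). Of GV peaks from 300 to 400 bp, 1.18% were shared (0.733% to 1.80%), and of those of 1 kb or more 39.4% (29.7% to 49.7%). Among peaks of at least 362 bp, the median of both oocyte lists together, 37.8% of the MII peaks were shared against 19.2% of all MII peaks, and the ratio of GV to MII peak numbers was 9.29 against 6 overall.

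**Figure D1:**
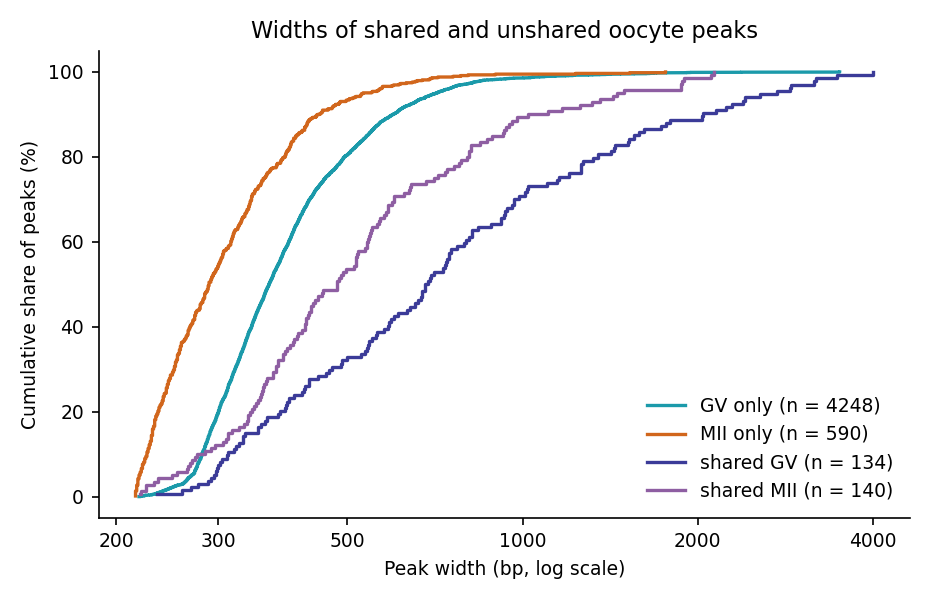
Cumulative share of peaks (vertical axis, %) by peak width (horizontal axis, bp, log scale) for the 4 classes of oocyte peak. The curve of MII-only peaks lies furthest left with a median of 289 bp, followed by GV-only peaks at 366.5 bp, and the shared peaks reach widths of 4005 bp in the GV list and 2131 bp in the MII list.

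The shared peaks formed 143 overlapping pairs, with a median overlap of 411 bp and a smallest overlap of 14 bp. The distance between centres had a median of 77.5 bp and a 90th percentile of 501 bp. Since pairs were chosen by their overlap, their centres could not lie far apart. The GV peak was the wider one in 99 pairs (69.2%) and the MII peak in 44, and the median ratio of GV to MII width was 1.36. In 84 pairs (58.7%) the MII peak lay wholly inside the GV peak, and in 26 the GV peak lay wholly inside the MII peak. At least 50% of both peaks was shared in 80 pairs (55.9%), and with that requirement 11% of the MII peaks counted as shared. The unshared peaks were mostly far from the other list. Only 17 of the 590 MII-only peaks (2.88%) had a GV peak within 1 kb and 74 (12.5%) within 10 kb, and the median distance was 193 kb. For GV-only peaks the nearest MII peak lay within 10 kb in 134 cases (3.15%) and the median distance was 1136 kb, with the MII list the shorter of the 2.

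The 6 widest shared peaks of either list were all GV peaks, so that a narrower MII peak at each follows from the choice. The widest of all, on chromosome X from 89972338 to 89976342, spanned 4005 bp in GV and 1894 bp in MII, and from 3266 to 4321 bp in the 9 embryo lists. On chromosome 16 the stretch from 55855021 to 55858497 was a single GV peak of 3477 bp overlapped by 3 MII peaks, the widest of 926 bp. The narrowest of these, from 55856429 to 55856653, was 225 bp wide, so that the GV peak was 15.5 times as wide, the highest ratio among the pairs. In the embryo lists this region carried peaks of 2816 to 3378 bp. A further region on chromosome X, from 27725464 to 27728665, was 3202 bp wide in GV, 484 bp in MII and 2057 bp in 2-cell embryos. On chromosome 6 from 5904878 to 5908049 the GV peak measured 3172 bp and the MII peak 545 bp. On chromosome 20 from 55750926 to 55753824 the widths were 2899 and 445 bp, and on chromosome 14 from 551860 to 554745 the GV peak of 2886 bp overlapped 3 MII peaks of up to 948 bp. The narrowest MII peak there, from 554374 to 554699, was 326 bp wide, a ratio of 8.85. The third most unequal pair lay close to the first, where a GV peak on chromosome 16 from 55916885 to 55919123 measured 2239 bp and an MII peak in it 337 bp. All 6 of these widest regions had a peak in each of the 9 embryo lists. Ranked by MII width instead, a list added after the values were seen, 4 of the 6 widest shared MII peaks met a wider GV peak and 2 only narrower ones. The first was on chromosome 7 from 89222521 to 89224651, with 2131 bp in MII and 2562 bp in GV. The next, also on chromosome 7, from 66692671 to 66694780, had 2110 and 2418 bp. On chromosome 13 from 83063644 to 83065518 the MII peak was the wider one, with 1875 against 1262 bp. The pairs with the largest ratio of MII to GV width lay on chromosome 29, where 1 MII peak of 1880 bp, from 30287217 to 30289096, overlapped 3 GV peaks of 297, 429 and 740 bp. Close by, from 30260619 to 30261401, an MII peak of 783 bp covered a GV peak of 302 bp.

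Unshared peaks included broad ones too. The widest GV-only peak (3511 bp) lay on chromosome 18 from 57604364 to 57607874, and embryo peaks there measured 240 bp at the 2-cell, 765 bp at the 4-cell and 3171 bp at the 8-cell stage and 3292 bp on day 14, with none in the other 5 lists. On chromosome 9 from 39085 to 41598, at the very start of the assembled chromosome, the GV peak of 2514 bp met embryo peaks of 271 to 1098 bp in 7 lists. Of the other GV-only peaks among the 6 widest, 2 flanked each other on chromosome 3, from 8102935 to 8104854 (1920 bp) and from 8109518 to 8111892 (2375 bp), and both were found in all 9 embryo lists. A peak of 2086 bp on chromosome 7 from 71934856 to 71936941 was found in 7 embryo lists, where the widest measured 599 bp. A peak of 1948 bp on chromosome 6 from 6549640 to 6551587 was found in all 9. The 3 widest MII-only peaks stood together on chromosome 29, from 30232202 to 30233963 (1762 bp), from 30317657 to 30319185 (1529 bp) and from 30337454 to 30338687 (1234 bp). The first of them had a peak in all 9 embryo lists, of 1830 to 2184 bp, so that the GV list was the only one of the 11 without it. The second was likewise missing from the GV list alone. The third was missing from the GV and 4-cell lists. The next MII-only peaks were under 1 kb wide, on chromosome 16 from 66307166 to 66308063 (898 bp, 2 embryo lists), chromosome 1 from 2278504 to 2279309 (806 bp, 4 embryo lists) and chromosome X from 35682793 to 35683575 (783 bp, 6 embryo lists).

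Chromosomes were filled unevenly in both lists, and the order differed between them. Density was taken as peaks per Mb relative to the mean of the same list. GV peaks were densest on chromosome 18 with 259 peaks (2.38 times the mean), chromosome 13 with 293 (2.11 times) and chromosome 23 with 166 (1.92 times), the chromosome that carries the bovine major histocompatibility complex. They were sparsest on chromosomes 22 (33 peaks, 0.326 times), 1 (103 peaks, 0.395 times) and 6 (130 peaks, 0.661 times). MII peaks were densest on chromosome 29 with 48 peaks (3.40 times), chromosome 14 with 39 (1.68 times) and chromosome 18 with 27 (1.49 times), and sparsest on chromosomes 12 (11 peaks, 0.440 times), 20 (12 peaks, 0.607 times) and 2 (23 peaks, 0.612 times). Chromosome 13 stood at 1.04 times the mean in MII and chromosome 23 at 0.833 times, so neither was dense there.

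The dense chromosomes of the 2 lists were filled in different ways. On chromosome 29 a single 1 Mb window, from 30 to 31 Mb, held 32 of the 48 MII peaks, and without it the density was 1.21 times the mean. On chromosome 14 the window from 0 to 1 Mb held 20 of the 39 MII peaks, and without it the density was 0.851 times the mean. In the GV list the fullest window of chromosome 18 held 29 of 259 peaks, that of chromosome 13 held 13 of 293 and that of chromosome 23 held 13 of 166. Without those windows the densities were 2.16, 2.05 and 1.81 times the mean, and the peaks lay in 51, 72 and 39 windows. Across the 30 chromosomes the densities of both lists had a Pearson correlation of 0.33 and a Spearman correlation of 0.52, given as a description since the chromosomes of a list share its libraries. Without chromosomes 14 and 29 the values were 0.50 and 0.48. MII density followed that of 2-cell embryos more closely (Pearson 0.78, or 0.52 without chromosomes 14 and 29) than that of day 14 embryos (0.19 and 0.16). For GV density the order was the other way round, with 0.20 against the 2-cell list and 0.50 against the day 14 list.

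**Figure D2:**
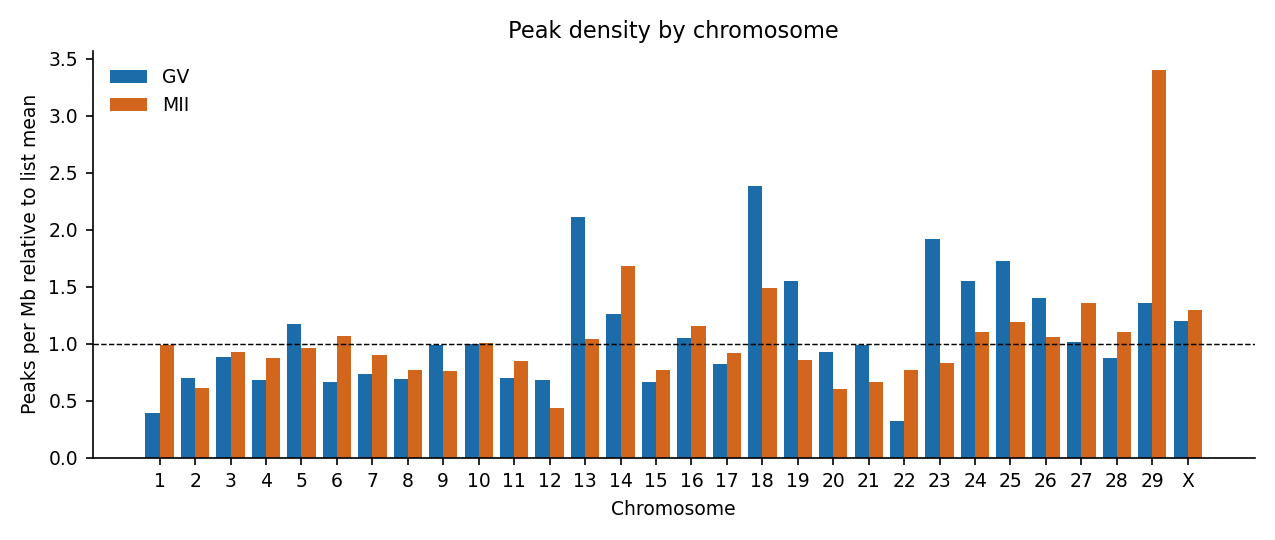
Peak density on each of 29 autosomes and X (horizontal axis) as peaks per Mb relative to the mean of the same list (vertical axis, dashed line at 1), for the GV list (blue bars) and the MII list (orange bars). Chromosomes 13, 18 and 23 stand out in GV at 2.11, 2.38 and 1.92, and chromosome 29 in MII at 3.40.

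The gene-dense chromosomes 18, 19 and 25 held 545 GV peaks, 12.4% of the list (interval 11.5% to 13.5%), and 56 MII peaks, 7.67% (5.85% to 9.85%). Among GV peaks of at least 362 bp the density on these chromosomes was 2.05 times that elsewhere, whereas MII peaks of that width were at 0.602 times, with an interval of 0.285 to 1.13 that includes equal density. Over all widths the ratio of density on these to density on the rest was 1.20 in MII (0.893 to 1.57) and 2.04 in GV (1.86 to 2.24). On X the lists were alike, with 6.71% of GV peaks (5.99% to 7.49%) and 7.26% of MII peaks (5.49% to 9.39%). Sharing also varied by chromosome, around 19.2% for the whole MII list. Of the MII peaks on chromosome 14, 53.8% overlapped a GV peak (interval 37.2% to 69.9%), on chromosome 9 36.4% (17.2% to 59.3%) and on chromosome 29 31.2% (18.7% to 46.3%). The intervals of chromosomes 9 and 29 included 19.2%. On chromosome 14 the window from 0 to 1 Mb held 17 of the 21 shared MII peaks. On chromosomes 12, 15, 19 and 22 no MII peak was shared, 0 of 57 together. Taken singly, the upper limits of their intervals ran from 18.5% (chromosome 15) to 28.5% (chromosome 12). Taken as 3 counts of the total, and not as an exact interval, a count of 0 allows a share of up to 5.26% for these 4 chromosomes, picked after their values were seen.

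Along the chromosomes GV peaks gathered towards the far end. All cattle autosomes are acrocentric, with the centromere at one end, which is the start in the assembly. Each autosome was divided into 10 segments of equal length, numbered from the start. Among 4088 autosomal GV peaks, 945 (23.1%, interval 21.8% to 24.4%) lay in the last segment and 632 (15.5%, 14.4% to 16.6%) in the segment before, against 5.94% to 9.37% in each of the other 8. The excess was spread over the genome, with more than 10% of a chromosome's GV peaks in its last segment on 27 of 29 autosomes. Chromosome 9 had 80 of 172 there and chromosome 17 43 of 102, whereas chromosomes 14 (6.82%) and 27 (7.89%) were the exceptions. The median GV peak lay at 0.667 of the chromosome's length and the median MII peak at 0.587. In the MII list 115 of 677 autosomal peaks (17%) lay in the last segment, with more than 10% on 17 of 29 autosomes, and 57 (8.42%) in the segment before. Chromosome 1 alone gave 24 of these 115 MII peaks. Counted by distance, the last 5 Mb of the autosomes held 16.2% of GV and 9.45% of MII peaks and made up 5.77% of their length. The first 5 Mb held 5.58% of GV and 9.9% of MII peaks, so by this measure MII had no excess at the far end over the start. The last 1 Mb held 3.89% of GV and 3.99% of MII peaks. The first segment held 8.17% of GV peaks (7.35% to 9.05%) and 13.4% of MII peaks (11% to 16.2%). The widest 730 GV peaks, as many as the MII list holds and 539 bp or more in width, had 18.3% in the last segment (interval 15.4% to 21.5%) and 17.8% in the first. The value for the last segment is within the counting interval of the MII list (14.2% to 20%), but these GV peaks are wider than most MII peaks, so number and width changed together. Among peaks of at least 362 bp the last segment held 22.3% of GV peaks (20.6% to 24.2%) and 18.7% of MII peaks (13.8% to 24.4%).

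The GV share in the last segment was higher than in any of the 9 embryo lists, which ran from 7.17% in in vivo blastocysts to 18.7% in 2-cell embryos, with 9.39% at the 8-cell stage and 18% on day 14. Shared peaks lay elsewhere. Of the 120 shared autosomal GV peaks, 38 (31.7%) lay in the first segment and 15 (12.5%) in the last. Of those 38, 14 lay in the window on chromosome 14. Without that window and the one on chromosome 29, which lies in segment 6, 26.4% (interval 17.7% to 36.7%) lay in the first segment and 16.5% (9.53% to 25.7%) in the last.

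**Figure D3:**
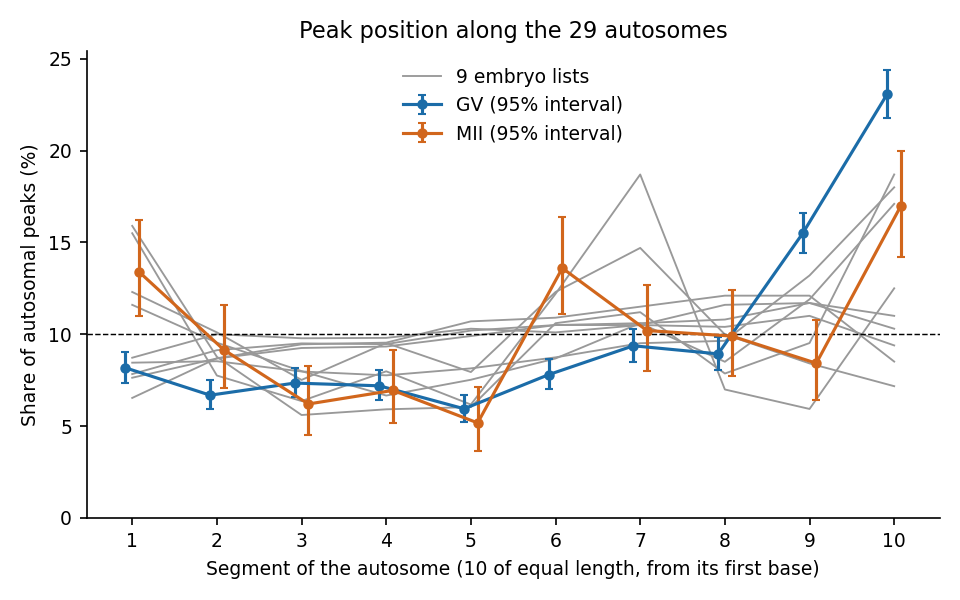
Share of autosomal peaks (vertical axis, %) in each of 10 equal segments of a chromosome's length (horizontal axis, segment 1 holding the first base), with GV in blue, MII in orange, bars for 95% counting intervals, grey lines for the 9 embryo lists and a dashed line at 10%. The GV line reaches 15.5% and 23.1% in the last 2 segments, above every grey line in the last, and the MII line reaches 13.6% in segment 6, where the cluster on chromosome 29 lies.

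Both lists held clusters, set in a sparse background for MII. The median distance to the nearest peak of the same list was 1158 kb in MII and 71.7 kb in GV, and 464 MII peaks (63.6%) were alone in a 1 Mb window against 611 GV peaks (13.9%). These values and those that follow depend on list length (730 MII and 4382 GV peaks). Alone they do not show which list is the more clustered. GV peaks occupied 1525 of 2678 windows (56.9%) and MII peaks 551 (20.6%), and 388 of those 551 (70.4%) also held a GV peak. The share of peaks with a neighbour within 10 kb was 19.2% in GV and 14.2% in MII. The 10 fullest windows took 5.50% of GV peaks (4.84% to 6.22%) and 13.3% of MII peaks (10.9% to 16.0%). Among peaks of at least 362 bp in both lists these shares were 7.70% (6.64% to 8.86%) and 24.5% (19.3% to 30.3%). At that width there were 9.29 times as many GV as MII peaks. Among the 730 widest GV peaks the 10 fullest windows took 15.6% (13.1% to 18.5%), against MII peaks of all widths. Without the windows on chromosomes 14 and 29 the shares were 4.08% and 7.82%.

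A set of 3 windows was among the 10 fullest of both lists, on chromosome 14 from 0 to 1 Mb, on chromosome 29 from 30 to 31 Mb and on chromosome 6 from 5 to 6 Mb. On chromosome 14 it held 70 GV and 20 MII peaks, of which 14 and 17 were shared, and 83 peaks at the 2-cell and 95 at the 4-cell stage. On chromosome 29 it held 22 GV and 32 MII peaks, of which 15 and 13 were shared. Of the 10 fullest MII windows this one and chromosome 1 from 145 to 146 Mb had more MII than GV peaks, and the latter held 6 GV and 14 MII peaks, 3 of the MII peaks shared. On chromosome 6 it held 16 GV and 5 MII peaks, and the adjoining window from 6 to 7 Mb held 26 GV and 3 MII peaks. The fifth window by MII count lay on chromosome 16 from 55 to 56 Mb, where all 5 MII peaks were shared. Together the windows on chromosomes 14 and 29 supplied 21.6% of the shared GV peaks and 21.4% of the shared MII peaks.

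Of the 5 fullest GV windows, 2 were empty in MII. Most windows with a GV peak were, since 388 of those 1525 also held an MII peak. The window on chromosome 18 from 57 to 58 Mb held 29 GV peaks and no MII peak, and that from 51 to 52 Mb held 19 and none. The 2-cell list had 4 and 8 peaks there, the 4-cell list 22 and 8, and the 8-cell list 79 and 48. The blastocyst lists had 1 to 5 peaks in each. These windows differ from the other 3 of the 5, which held from 26 to 83 peaks at the 2-cell stage and from 40 to 129 in each blastocyst list.

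Within the windows, the longest runs of peaks no more than 10 kb apart had 12 members in each list. In GV it lay on chromosome 6 from 6542860 to 6575847 (33.0 kb), where the MII list had 2 peaks and the embryo lists from 8 to 17. In MII it lay on chromosome 29 from 30275509 to 30319185 (43.7 kb), where the GV list had 6 peaks and the embryo lists from 11 to 36. The next runs in GV, on chromosome 14 from 470605 to 501296 and from 431984 to 458483, had 11 and 8 GV peaks and 2 MII peaks each. The next runs in MII stood on either side of the first, on chromosome 29 from 30350102 to 30379860 with 9 MII and 5 GV peaks and from 30226956 to 30261401 with 8 MII and 6 GV peaks. The embryo lists had peaks in each of these 6 stretches. Each run was picked by the number of peaks in its own list, so a higher count there than in the other oocyte list is favoured by the choice.

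Nearly every peak shared by both oocyte stages was found again in the embryo. Of the 134 shared GV peaks, 133 (99.3%) overlapped a peak in at least 1 embryo list and 110 (82.1%, interval 74.5% to 88.2%) in all 9, against 59.0% and 6.98% of all 5112 oocyte peaks. The share ran from 88.1% in in vivo morulae to 97% in 8-cell embryos, and was 90.3% even in the 2-cell list, which covers 0.0431% of the genome. The single shared GV peak without an embryo peak, named after its value was seen, lay on chromosome 28 from 45379867 to 45380199. Shared MII peaks gave similar values, with 114 of 140 (81.4%) in all 9 lists. GV-only peaks were in all 9 lists in 106 cases (2.50%, 2.05% to 3.01%) and MII-only peaks in 27 (4.58%, 3.04% to 6.59%). Without the windows on chromosomes 14 and 29 these shares were 2.01% (1.6% to 2.48%) and 2.82% (1.62% to 4.53%), with intervals that met. Since shared peaks were wide, GV-only peaks were also weighted to match them in width, by 4 groups of width, and then 14.8% were in all 9 lists and 74.9% in at least 1. With at least 50% of both peaks required to overlap, 37.5% of shared GV peaks were in all 9 lists, against 1.19% of GV-only and 0.769% of MII-only peaks.

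GV-only peaks recurred in embryos more often than MII-only peaks. At least 1 embryo list held 2550 of 4248 GV-only peaks (60%, interval 58.5% to 61.5%) and 193 of 590 MII-only peaks (32.7%, 28.9% to 36.7%). Among all 5112 oocyte peaks, most of them GV-only, the share was 59.0%. Weighted to the widths of MII-only peaks the GV-only share was 57.9%, still above the MII-only share. The gap was found in each of the 5 longer lists. In the 8-cell list 27.4% of GV-only and 12.4% of MII-only peaks were present, against 29.4% of all oocyte peaks. In the 16-cell list these values were 26.7% and 12.2%, against 28.6%. In the morula list they were 32% and 14.9%, against 33.4%, and in the in vivo morula list 23% and 11.5%, against 25.2%. In the day 14 list they were 51.7% and 26.9%, against 51.3%. In the 2-cell list 6.19% of GV-only and 7.29% of MII-only peaks were present, against 10.8% of all oocyte peaks, and in the 4-cell list 10.3% and 7.97%, against 14.4%. In the blastocyst list the values were 7.32% and 9.66%, against 12.2%, and in the in vivo blastocyst list 5.48% and 9.66%, against 10.6%. The blastocyst lists thus held a larger share of MII-only than of GV-only peaks. The intervals met without the in vivo label (6.56% to 8.15% and 7.40% to 12.3%). They did not meet in vivo (4.82% to 6.21% and 7.40% to 12.3%). The MII-only share came from 57 peaks in each list, and clustered peaks count as independent in these intervals. The windows on chromosomes 14 and 29 held 129 and 116 blastocyst peaks (60 and 63 in vivo), and the shares were not recomputed without them.

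These shares stand beside the length of each list. The 9 embryo lists together covered 8.14% of the genome, and the centre of the peak fell inside that area for 47.8% of GV-only and 25.4% of MII-only peaks. The day 14 list covered 4.66% of the genome and held the centre of 37.4% of GV-only and 18.3% of MII-only peaks. The 8-cell list covered 1.38% and held the centre of 22.6% and 11.4%.

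**Figure D4:**
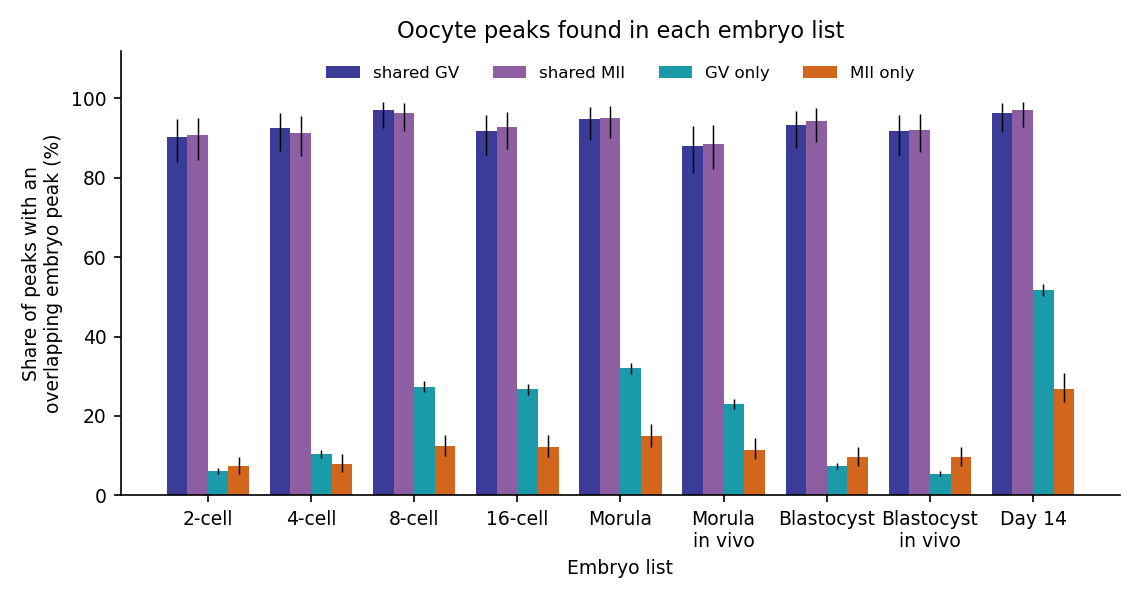
Share of oocyte peaks that overlap a peak of each embryo list by at least 1 bp (vertical axis, %), for shared GV, shared MII, GV-only and MII-only peaks, with bars for 95% counting intervals. Shared peaks lie between 88.1% and 97.1% in all 9 lists, and GV-only peaks exceed MII-only peaks from the 8-cell to the morula lists and on day 14.

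The lists in which a peak recurred formed a few common patterns. Among GV-only peaks the largest group, 1698 peaks (40%), had no embryo peak, and 753 (17.7%) had one on day 14 alone. The third, with 414 peaks (9.75%), was present at the 8-cell and 16-cell stages, in both morula lists and on day 14, and absent from MII oocytes, 2-cell and 4-cell embryos and both blastocyst lists. A further 69 (1.62%) had that pattern with a 4-cell peak added. Among MII-only peaks 397 (67.3%, interval 63.3% to 71.1%) had no embryo peak and 69 (11.7%) one on day 14 alone. Over all peaks of the GV and MII lists, 38.8% and 54.7% had no embryo peak, and 17.2% and 9.59% one on day 14 alone. The pattern of 8-cell to morula and day 14 was found for 6 MII-only peaks (1.02%), fewer than the 27 that were present in all 9 lists. Only 15 GV-only (0.353%) and 3 MII-only peaks (0.508%) recurred in the 2-cell, 4-cell or blastocyst lists without recurring in a longer one.

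**Figure D5:**
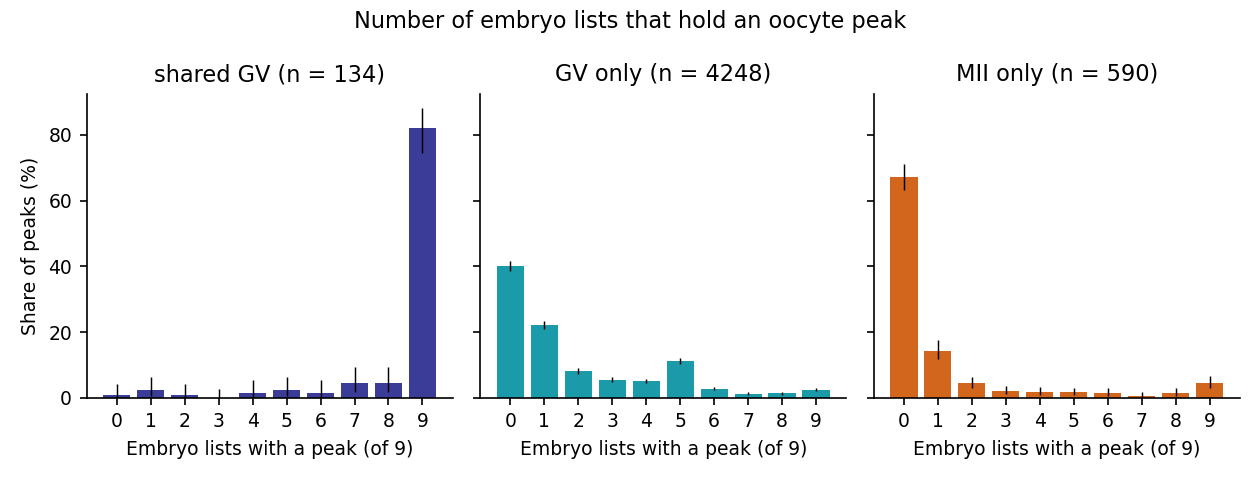
Share of peaks (vertical axis, %) by the number of embryo lists that hold an overlapping peak (horizontal axis, 0 to 9), for 134 shared GV, 4248 GV-only and 590 MII-only peaks, with bars for 95% counting intervals. Shared peaks pile up at 9 lists (82.1%) and both unshared classes at 0 (40% and 67.3%). GV-only peaks have a second rise at 5 lists (11.3%), mostly the 5 longest lists (9.75%).

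Recurrence varied with width and with position inside the unshared classes. With each class cut into 4 groups of similar size by width, GV-only peaks of the widest group (458 bp or more) were in at least 1 embryo list in 70.8% of cases (interval 68.0% to 73.5%), against 53% (49.9% to 56.1%) in the narrowest group. For MII-only peaks these values were 39.9% (31.9% to 48.2%) and 30.6% (23.2% to 38.8%), with intervals that met. In the last segment of the autosomes, where GV peaks were most frequent, 462 of 930 GV-only peaks (49.7%, 46.4% to 52.9%) were in an embryo list. This share was lower than in the middle 8 segments, which were pooled, with 61.7% (59.8% to 63.5%). It was also lower than in the first segment, with 72% (66.5% to 77.0%). Median widths in these parts were 361, 364 and 388 bp. The lower recurrence held for the day 14 list, itself dense at the chromosome ends, with 43.5% in the last segment against 52.7% in the middle, and for the 8-cell to morula lists, with 26.8% against 42%. MII-only peaks gave 37.4% in the last segment (27.9% to 47.7%) and 31.7% in the middle (27.2% to 36.5%), which were not distinguishable at these numbers. On chromosomes 18, 19 and 25 an embryo peak was found for 66.4% of GV-only peaks (62.3% to 70.4%) and 27.5% of MII-only peaks (15.9% to 41.7%).

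GV-only and MII-only peaks found in no embryo list had median widths of 352 and 282 bp. The medians of all GV-only and MII-only peaks, which include them, were 366.5 and 289 bp. Those found in all 9 embryo lists were wider, with medians of 619.5 bp (GV-only) and 398 bp (MII-only). The 3 widest GV-only peaks in no embryo list lay on chromosome X from 108652224 to 108653533 (1310 bp), on chromosome 24 from 46507995 to 46509287 (1293 bp) and near the end of chromosome 18 from 64886182 to 64887269 (1088 bp). Those of MII oocytes lay on chromosome 6 from 39309997 to 39310756 (760 bp), on chromosome 7 from 25693838 to 25694528 (691 bp) and on chromosome 3 from 75965311 to 75965969 (659 bp). At the other end, the widest MII-only peaks found in all 9 embryo lists were the first 2 peaks on chromosome 29 named above and a peak of 715 bp on chromosome 1 from 145391614 to 145392328, where embryo peaks measured 1002 to 2643 bp.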

How the data were processed

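Per the submitters' processing notes, the authors used Bowtie2 2.3, MACS2, bedtools and HOMER with the cattle build UMD3.1. How peaks were called and merged, and whether reads were moved to the cut site of the transposase, is not given in the sources used here. These steps and the depth affect the number and width of peaks. The deposited lists hold positions only, as the authors merged them per stage, so no height, score or read count was used. Lists were read as BED files, with starts counted from 0, and positions are printed from 1 (the lists do not state the convention, so a start could be off by 1). A chromosome was taken to end at its last peak across the 11 lists, which gave 2661 Mb. Peaks were assigned to 1 Mb windows and chromosome segments by their centre. Shared counts were equal to those of bedtools 2.31.1, and overlap counting was tested on simulated lists. Width weighting used 4 groups of the reference class.

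Named regions were the 6 widest peaks of each class, the 3 widest unshared peaks in all 9 and in no embryo list, the 3 most unequal pairs in each direction, the 5 fullest windows, the 3 longest runs and the 3 densest and sparsest chromosomes of each list. Classes, lists and regions were chosen with earlier results of these data known. The last segment, presence in all 9 lists, the omission of 2 windows, the 730 widest GV peaks and the 6 widest shared MII peaks were added after the values were seen. Promoter and marker lists were planned and not analysed here, since no annotation of UMD3.1 was used. Python 3.11.15, numpy 2.4.6, scipy 1.17.1 and matplotlib 3.10.9 were used.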

Additional observations from a re-analysis of the deposited data

How the results depend on the processing

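Each of 18 results was recomputed under up to 14 alternatives, which gave 159 values. Of these, 93 stayed within the counting interval of the reported value, 65 fell outside it, and 1 changed side. The cause was not tested, except where fewer peaks or a smaller region follow from the alternative itself. No paired analysis was possible because each group has 1 merged list, and for the same reason no replicate could be left out.

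With peaks of at least 362 bp only, the ratio of peak numbers was 9.29, shared MII and GV peaks made up 37.8% and 3.89%, and the MII density on chromosomes 18, 19 and 25 changed side, to 0.602. The first segment then held 9.69% of GV and 21.3% of MII peaks, and the 10 fullest windows 7.70% and 24.5%. Presence in any embryo list was 64.6% for GV-only, 42.6% for MII-only and 100% for shared GV peaks, and presence in all 9 was 4.46%, 12.9% and 91.1%.

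Without the 17 windows that were among the 10 fullest of either list, the ratio was 6.53 and the shared shares 12.9% (MII) and 1.95% (GV). The first segment held 5.71% of GV and 10.3% of MII peaks, the fullest remaining windows 2.98% and 5.10%, any embryo list 28.6% of MII-only peaks, and all 9 lists 1.49% of GV-only and 2.01% of MII-only peaks. Without the windows on chromosomes 14 and 29 alone, the shared shares were 16.2% (MII) and 2.45% (GV), the first segment held 6.61% of GV peaks, the fullest windows 4.08% of GV and 7.82% of MII peaks, and all 9 lists 2.01% of GV-only and 2.82% of MII-only peaks.

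With 50% of both peaks required, 11% of MII and 1.83% of GV peaks were shared and shared GV peaks were 1.61 times as wide as unshared ones, against 1.87. Any embryo list then held 28.7% of GV-only, 20% of MII-only and 88.8% of shared GV peaks, and all 9 held 1.19%, 0.769% and 37.5%. With peaks widened by 250 bp, any embryo list held 71.8% of GV-only and 46.0% of MII-only peaks. Without the day 14 list these shares were 42.3% and 21.0%. Without the 8-cell to morula lists they were 52.8% and 28.6%, and all remaining lists held 3.44% of GV-only peaks.

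With the GV list cut to its 730 widest peaks (539 bp or more), 13.3% of MII and 12.1% of GV peaks were shared and the width ratio was 1.46. The first and last segments held 17.8% and 18.3% of GV peaks and the 10 fullest windows 15.6%. Any embryo list held 75.7% of GV-only, 37.0% of MII-only and 100% of shared GV peaks, and all 9 held 10.4%, 8.37% and 93.2%. With segments of 5% of the length in place of 10%, the first held 5.23% of GV and 9.75% of MII peaks and the last 13.0% and 10%. The 20 fullest windows of 0.5 Mb held 6.64% of GV peaks, and the 5 fullest of 2 Mb held 4.52% of GV and 10.8% of MII peaks.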
